A study of Mus musculus with 2 samples.

Results

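The genes described here are 7 markers used to follow radial glia and the astroglial lineage in developing cortex, namely Prom1, Hey2, Tnc, Slc1a3, Aldh1l1, Clu and Sparcl1. They were taken by symbol from a table of 2381 rows with 2370 different entries in its gene column, in which they have 8 rows, 1 each and a second one for Prom1. Prom1, Hey2 and Tnc were treated as apical progenitor genes, and Slc1a3, Aldh1l1, Clu and Sparcl1 as astroglial genes. The genes and this grouping were chosen with their values known, so every value and every contrast between the groups below is a description with no test.

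The Trrap-deleted sample came from the cortex of embryos at E14.5 that were homozygous for a floxed Trrap allele and carried Nestin-Cre (TrrapF/F NestinCre+). The control came from the same tissue and day, and although it was entered as wild type, its description gives it 1 floxed allele and the same Cre (TrrapF/+ NestinCre+). Both samples thus carried Cre and at least 1 floxed allele on a B6/129 background, and neither was wild type at the Trrap locus. Nestin-Cre acts mainly in neural progenitors and their progeny, so cells of other origin in the cortex, such as microglia and vessel cells, may have kept Trrap. The table has no row for Trrap, so the deletion could not be checked from its transcript. How many embryos went into each sample is not in the labels. There was 1 library per genotype, so no standard deviation can be given and how much embryos of 1 genotype vary is not known.

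Radial glia are the apical progenitors of the cortex. They span its wall, hold an apical surface at the ventricle, receive Notch signals that keep them from differentiating, and make neurons first and astrocytes later. Several genes that mark mature astrocytes, such as the glutamate transporter gene Slc1a3, are already transcribed in radial glia, so a marker of astroglia is not by itself a marker of astrocytes at this age. Trrap is the scaffold protein that brings histone acetyltransferase complexes to promoters.

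The 3 apical progenitor genes were lower and the 4 astroglial genes higher in the Trrap-deleted library. Values are the authors' deposited FPKM, which divide fragment numbers by transcript length and by library size, and log2 ratios are of Trrap-deleted over control FPKM. The log2 ratios ran from -1.58 to -1.06 in the apical progenitor genes, with a median of -1.48, and from 0.61 to 3.20 in the astroglial genes, with a median of 1.02. The summed level of the apical progenitor genes was 14.4 FPKM in the Trrap-deleted library and 38.7 FPKM in the control library, and that of the astroglial genes was 116 FPKM in the Trrap-deleted and 56.5 FPKM in the control library. The table holds only rows that passed the authors' test at a q-value of 0.05, and 58.0% of them were higher with Trrap deleted and 42.0% lower. All 3 apical progenitor genes were at least 2-fold lower, as were 13.2% of the 2306 symbols compared, and 2 of the 4 astroglial genes were at least 2-fold higher, as were 25.7% of symbols. These counts depend on the scaling of the libraries. With both set to equal summed FPKM over listed rows, Tnc was under 2-fold lower (log2 ratio -0.71) and Slc1a3 over 2-fold higher (1.19). With the median ratio of all listed rows set to 0, Clu was under 2-fold higher (0.66). Both rescalings used only rows that passed the authors' test, so neither sets the libraries to equal totals over all genes. Since the genes were picked by direction, their split is not read against these shares. In bulk tissue, fewer cells of a type and less RNA per cell cannot be told apart.

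The promoter windows of the genes are shown here because genes of a group moved together, and because Hey2 belongs to a pathway whose DNA-binding factor has a known recognition core. RefSeq gave windows for 5 of the 7 genes, from 250 bases before to 50 bases after a transcription start, on GRCm38.p6, a build other than the mm9 of the table. Clu and Sparcl1 had no window in that set. Capitals mark, on either strand, the core recognised by RBPJ, the Notch pathway factor (TGGGAA), the short core of the NFI site (TTGGC), the N-box bound by Hes and Hey repressors (CACNAG) and the TATA box (TATAAA). No matches overlapped. The first of 2 windows is printed for Prom1 and for Tnc.
Prom1 (chr5:44101687-44101986, minus strand): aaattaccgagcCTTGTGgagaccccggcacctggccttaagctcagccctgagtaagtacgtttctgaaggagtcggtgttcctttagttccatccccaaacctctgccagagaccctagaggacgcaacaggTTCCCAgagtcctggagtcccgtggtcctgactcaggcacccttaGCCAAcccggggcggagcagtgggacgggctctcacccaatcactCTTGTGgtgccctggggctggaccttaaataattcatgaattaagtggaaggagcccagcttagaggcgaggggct
Hey2 (chr10:30842734-30843033, minus strand): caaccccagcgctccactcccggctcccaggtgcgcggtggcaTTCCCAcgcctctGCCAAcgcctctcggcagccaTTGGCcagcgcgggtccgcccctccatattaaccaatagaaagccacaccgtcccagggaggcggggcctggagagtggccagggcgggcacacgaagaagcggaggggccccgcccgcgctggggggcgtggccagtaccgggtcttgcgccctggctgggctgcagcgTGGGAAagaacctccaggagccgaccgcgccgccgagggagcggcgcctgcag
Tnc (chr4:64046966-64047265, minus strand): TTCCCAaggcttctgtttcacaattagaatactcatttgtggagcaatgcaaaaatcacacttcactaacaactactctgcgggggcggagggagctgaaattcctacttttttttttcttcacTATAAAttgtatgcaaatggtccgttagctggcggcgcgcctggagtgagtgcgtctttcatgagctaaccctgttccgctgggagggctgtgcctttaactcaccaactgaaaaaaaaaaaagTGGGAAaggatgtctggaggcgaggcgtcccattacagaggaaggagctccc
Slc1a3 (chr15:8710758-8711057, minus strand): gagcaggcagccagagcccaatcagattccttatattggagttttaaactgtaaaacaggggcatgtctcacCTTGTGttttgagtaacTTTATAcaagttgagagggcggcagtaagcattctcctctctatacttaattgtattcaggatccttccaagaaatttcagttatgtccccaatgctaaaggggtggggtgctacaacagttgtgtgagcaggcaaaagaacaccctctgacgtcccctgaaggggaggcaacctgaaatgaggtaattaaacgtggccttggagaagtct
Aldh1l1 (chr6:90550543-90550842, plus strand): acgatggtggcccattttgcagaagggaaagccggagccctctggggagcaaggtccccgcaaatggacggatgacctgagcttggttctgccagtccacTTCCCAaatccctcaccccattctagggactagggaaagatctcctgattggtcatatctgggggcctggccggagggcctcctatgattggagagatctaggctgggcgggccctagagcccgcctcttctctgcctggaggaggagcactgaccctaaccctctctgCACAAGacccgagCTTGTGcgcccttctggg

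The RBPJ core was present in the printed windows of the 3 apical progenitor genes, once in Prom1, 2 times in Hey2 and 2 times in Tnc. The windows not printed held it once for Tnc and had no match for Prom1. The 2 windows of Tnc overlap, and the match in the one not printed is a site already counted in the printed one. The core was present once in the window of Aldh1l1 and had no match in that of Slc1a3. Of 32851 promoter windows of the same length, 25.6% held this core, so it is a common sequence. In Hey2 the matches began at positions -207 and -3 relative to the start. The NFI core, held by 46.7% of all windows, occurred 2 times in Hey2 and once in Prom1 and was not matched in the windows of Tnc, Slc1a3 and Aldh1l1 printed here. The Tnc window not printed held it once, at position -18. An N-box, held by 42.5% of all windows, occurred in Prom1, Slc1a3 and Aldh1l1. The TATA box sequence, held by 13.6%, began at position -126 in the printed window of Tnc and, on the opposite strand, at -161 in Slc1a3. Neither the Myc E-box (CACGTG, in 7.15% of windows) nor an E2F core (TTCCCGC, in 4.60%) was matched in any window of these genes. The windows also differed in base composition. Hey2 had 72.0% G and C with 29 CpG pairs and Slc1a3 had 45.3% with 3 CpG pairs, against a median of 52.7% and 7 over all windows. A match is a description of the letters in a window and not of a bound site.

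Among the apical progenitor genes, Prom1 had the largest decrease and the highest level. Prom1 encodes prominin 1 (CD133), a membrane protein of protrusions on the apical surface of neural progenitors, and lies at chromosome 5, 44384863 to 44494528 (mm9). It had 8.32 FPKM in the Trrap-deleted library and 24.9 FPKM in the control library, 2.997-fold lower with a log2 ratio of -1.58. The authors' deposited table gives it a q-value of 7.57e-14, the smallest of the 7 genes, which ranks 61 among 2381 rows. When listed rows were put in 10 equal groups by mean FPKM, 58.0% of the rows in the group of Prom1 were higher, and only 10 of 238 had a lower ratio than Prom1.

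The second Prom1 row has the same locus and a lower level, with 0.654 FPKM in the Trrap-deleted library and 2.67 FPKM in the control library, 4.09-fold lower. The authors' deposited table gives it a q-value of 8.80e-06. Locus identifiers of chromosome 5 run in a first and a second block, and of listed rows with an annotated strand 46 of 46 in the first block were plus-strand genes and 61 of 62 in the second were minus-strand genes. Prom1 is a minus-strand gene in GENCODE M21. Its stronger row falls in the second block and its weaker row in the first, so the weaker row carries an identifier placed among plus-strand loci. No source used here says whether counting used strand, so the transcript that the weaker row stands for is uncertain. Of 11 symbols with 2 rows in the table, 9 had both rows at a single locus and 10 had both rows in a single direction.

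Hey2 was the least abundant of the 7 genes in the Trrap-deleted library and is a direct effector of Notch signalling, a repressor of the Hes and Hey family that holds progenitors back from differentiation. It had 1.60 FPKM in the Trrap-deleted library and 4.48 FPKM in the control library, 2.79-fold lower with a log2 ratio of -1.48 (q-value of 2.08e-05 in the authors' deposited table). It lies at chromosome 10, 30552165 to 30562607, and the length of that locus, 10443 bases, equals that of the gene in GENCODE M21. Of the rows in its abundance group, 73.0% were higher in the Trrap-deleted library, and 15 of 237 had a lower ratio than Hey2.

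Tnc encodes tenascin C, a matrix glycoprotein of the germinal zone that surrounds neural stem cells. It had 4.45 FPKM in the Trrap-deleted library and 9.25 FPKM in the control library, 2.08-fold lower with a log2 ratio of -1.06, the smallest decrease of the 3. The authors' deposited table gives it a q-value of 8.28e-06. Its locus in the table (chromosome 4, 63620819 to 63810958) is 190140 bases long, against 87231 bases for the annotated gene, so the row may take in transcripts from outside Tnc and its value is uncertain.

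**Figure D1:**
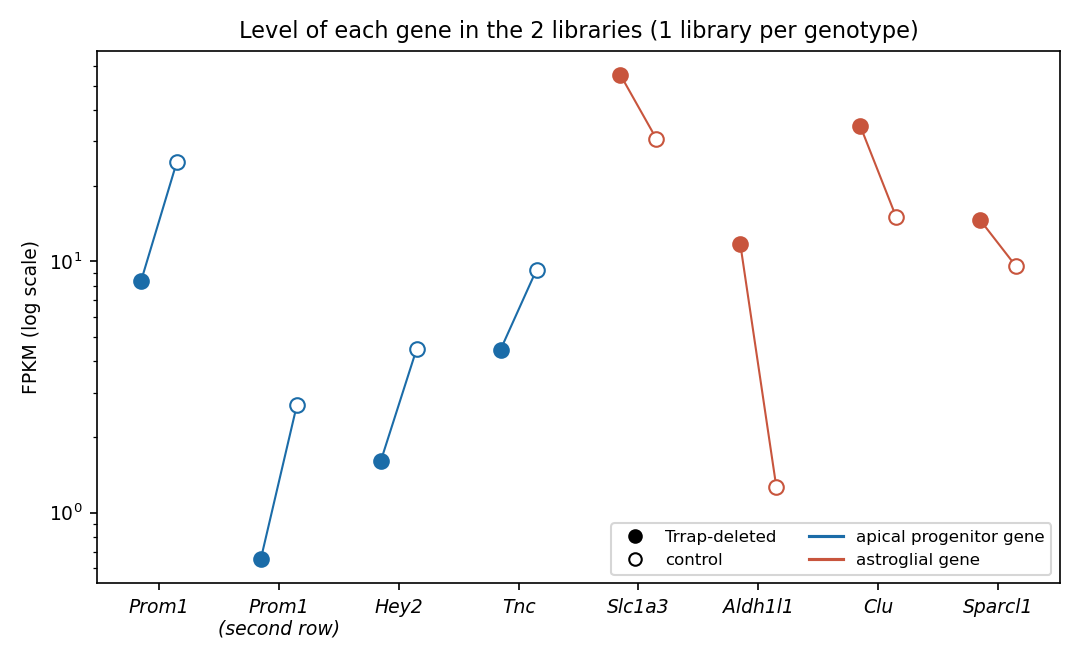
FPKM (log scale, y axis) of each gene (x axis) in the Trrap-deleted library (filled point, left) and the control library (open point, right), with a line joining the 2 values of a row and 1 library per genotype. Blue lines, for Prom1 with both its rows, Hey2 and Tnc, have the Trrap-deleted point below the control point, and red lines, for Slc1a3, Aldh1l1, Clu and Sparcl1, have it above, with the longest line in Aldh1l1 (11.7 FPKM in Trrap-deleted, 1.27 FPKM in control cortex).

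Among the astroglial genes, Aldh1l1 had the largest ratio. Aldh1l1 encodes 10-formyltetrahydrofolate dehydrogenase, an enzyme of folate metabolism widely used to mark astrocytes and also made in radial glia. It had 11.7 FPKM in the Trrap-deleted library and 1.27 FPKM in the control library, 9.18-fold higher with a log2 ratio of 3.20, which ranks 24 among the increases of 2376 rows with values above 0 in both libraries. In its abundance group only 1 of 238 rows had a higher ratio. Its q-value in the authors' deposited table was 8.79e-05, larger than those of the 3 apical progenitor genes with their smaller ratios. It lies at chromosome 6, 90436421 to 90550197, a locus of 113777 bases as in the annotation. On GRCm38 the RefSeq start whose window is printed above lies 64366 bases inside the GENCODE gene, so the row may join transcripts from more than 1 start, which a gene-level FPKM does not separate.

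Slc1a3 was the most abundant of the 7 genes in both libraries. It encodes GLAST, the glutamate transporter of radial glia and astrocytes, and lies at chromosome 15, 8584094 to 8660764. It had 55.1 FPKM in the Trrap-deleted library and 30.7 FPKM in the control library, 1.79-fold higher with a log2 ratio of 0.84 (q-value of 0.00159 in the authors' deposited table). This was the largest gain in absolute level, 24.4 FPKM, against 10.4 FPKM for Aldh1l1. Of the 4 genes described here that are also on a radial glia list used below, it was the one that was higher.

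Clu encodes clusterin, a secreted chaperone of astrocytes that is also made by choroid plexus and ependyma. It had 34.6 FPKM in the Trrap-deleted library and 15.01 FPKM in the control library, 2.30-fold higher with a log2 ratio of 1.20, and lies at chromosome 14, 66587320 to 66600415. Its q-value in the authors' deposited table was 0.0136. In its abundance group 12 of 237 rows had a higher ratio.

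Sparcl1, which encodes the secreted matrix protein hevin, had the smallest difference of the 7 on the log2 scale. It had 14.6 FPKM in the Trrap-deleted library and 9.55 FPKM in the control library, 1.53-fold higher with a log2 ratio of 0.61, at chromosome 5, 104508126 to 104548706. Its q-value in the authors' deposited table was 0.0259, the largest of the 7. The median log2 ratio over all listed rows with 2 values above 0 was 0.54, so Sparcl1 lay close to it. When the libraries were rescaled to set that median to 0, Sparcl1 came to 0.07, Slc1a3 to 0.30, Clu to 0.66 and Aldh1l1 to 2.65. The decreases became larger under that rescaling, at -2.13 for Prom1, -2.02 for Hey2 and -1.60 for Tnc. Setting the listed rows of the libraries to equal summed FPKM moved the values the other way. They came to -1.24 for Prom1, -1.13 for Hey2, -0.71 for Tnc, 0.96 for Sparcl1, 1.19 for Slc1a3, 1.55 for Clu and 3.54 for Aldh1l1.

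**Figure D2:**
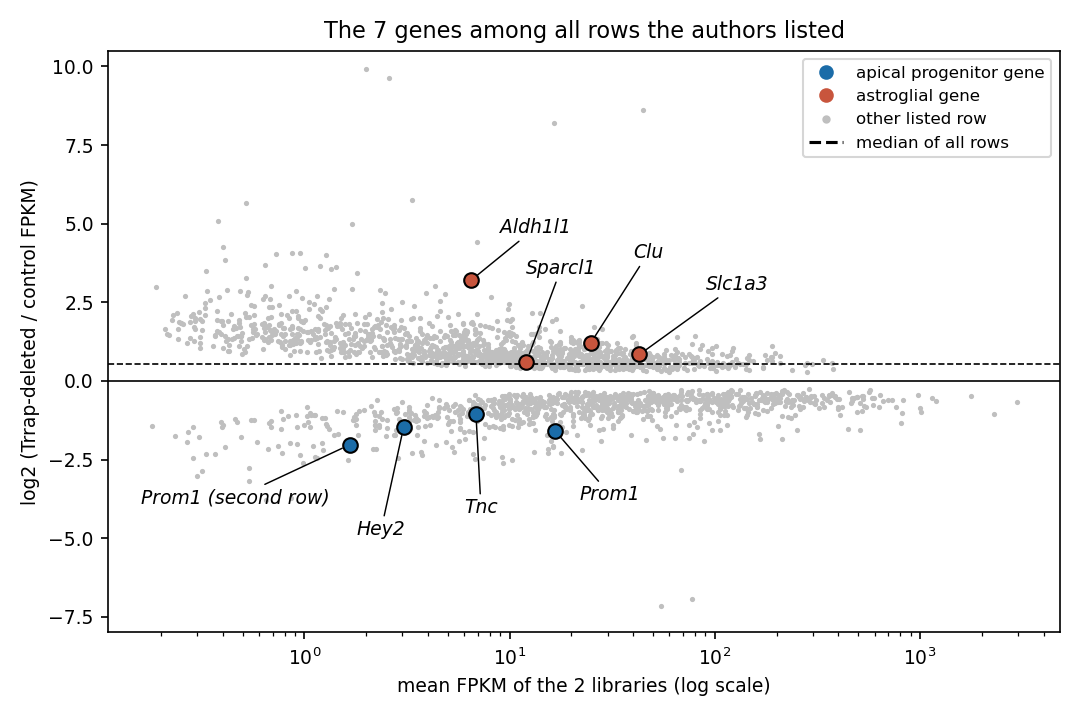
Log2 ratio of Trrap-deleted over control FPKM (y axis) against the mean FPKM of the 2 libraries (x axis, log scale) for the 2376 listed rows with values above 0 in both, with the apical progenitor genes in blue, the astroglial genes in red and the median of all rows (0.54) as a dashed line. Aldh1l1, at 3.20, stands above nearly all rows of its level, Sparcl1, at 0.61, sits by the median line, and the blue points lie along the lower side; the empty band around 0 is there because rows that did not pass the authors' test were not in the table.

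The order of the levels differed between the libraries. FPKM is scaled for length, so levels can be set side by side between genes. In the Trrap-deleted library the order was Slc1a3, Clu, Sparcl1, Aldh1l1, Prom1, Tnc and Hey2, and in the control library it was Slc1a3, Prom1, Clu, Sparcl1, Tnc, Hey2 and Aldh1l1. In the Trrap-deleted library the 4 astroglial genes were thus all above the 3 apical progenitor genes, whereas in the control library the groups were mixed. The ratio of Prom1 to Slc1a3 FPKM was 0.151 in the Trrap-deleted library and 0.812 in the control library. Tnc and Sparcl1 had nearly equal levels in the control library, where their ratio was 0.969, and a ratio of 0.305 in the Trrap-deleted library. Hey2 over Aldh1l1 was 0.138 in the Trrap-deleted library and 3.52 in the control library. Ratios of this kind do not depend on how the libraries are scaled against each other. Without replicate libraries it is not known which neighbours in either order differ beyond the spread between embryos.

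The median log2 ratio of the apical progenitor genes minus that of the astroglial genes was -2.50, a 5.67-fold difference between the groups. The nearest genes of the groups, Sparcl1 and Tnc, were 1.67 apart on the log2 scale. Because Slc1a3 is shared by radial glia and astrocytes, it was also counted with the apical progenitor genes, which gave a difference of -2.47 and left the apical group with genes in both directions.

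A broader list of 43 radial glia genes from textbook knowledge showed mostly decreases among its listed members. Like the other lists below, it was chosen with earlier results of these data known, so its counts are a description and no independent support. Of these 43, 10 were listed, 7 lower and 3 higher, with a median log2 ratio of -0.71, and 33 were not listed, among them Pax6, Sox2, Nes, Hes1, Hes5 and Fabp7. Over the 2306 symbols of the table that were compared in lists, 58.5% were higher, 41.5% were lower and the median was 0.55. That share went with abundance: among the 10 abundance groups, 81.5% of rows were higher in the weakest and 17.2% in the strongest, so a list of strong genes cannot be read against the overall share. Without the 4 genes already described, 6 were listed, of which 4 were lower and 2 higher, with a median of -0.62. Vim, the intermediate filament gene of radial glia, had 387 FPKM in the Trrap-deleted library and 632 FPKM in the control library, and lay in that strongest group. Nde1, needed for the mitotic spindle of progenitors, had 26.3 FPKM against 45.9 FPKM in the control. Hey1, the close relative of Hey2, had 17.5 FPKM in the Trrap-deleted and 25.3 FPKM in the control library, a log2 ratio of -0.53. The 2 that were higher were Ednrb, an endothelin receptor gene (17.5 FPKM in Trrap-deleted, 11.9 FPKM in control cortex), and Mt3, a metallothionein gene (117 FPKM in Trrap-deleted, 43.9 FPKM in control cortex). Mt3 is also on the astrocyte list.

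Of 50 genes on an astrocyte list, 14 were listed, 11 higher (10 once rescaled to a median of 0, Cst3 being the exception) and 3 lower, with a median log2 ratio of 1.05 (2.06-fold). Without Aldh1l1, Clu and Sparcl1, 8 of 11 were higher (72.7%, against 58.5% of all symbols compared), and the median was 0.98. Mlc1, a membrane protein gene of astrocyte endfeet, had 22.6 FPKM in the Trrap-deleted library and 7.12 FPKM in the control library. Atp1b2, a sodium pump subunit gene of glia, had 32.0 FPKM against 14.8 FPKM in the control, and Sparc, the relative of Sparcl1, had 76.9 FPKM against 39.0 FPKM in the control. Cst3, the cystatin C gene, which microglia also express strongly, had 145 FPKM in Trrap-deleted and 103 FPKM in control cortex. F3, the tissue factor gene (2.50 FPKM in Trrap-deleted, 1.10 FPKM in control cortex), Ppap2b, a lipid phosphatase gene (43.9 FPKM in Trrap-deleted, 28.6 FPKM in control cortex) and Dio2, a thyroid hormone deiodinase gene (0.981 FPKM in Trrap-deleted, 0.396 FPKM in control cortex) were also higher.

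The astroglial direction did not extend to every listed gene of that list. Gja1, which encodes connexin 43, the gap junction protein of radial glia and astrocytes, had 6.84 FPKM in the Trrap-deleted library and 17.9 FPKM in the control library, 2.61-fold lower. Bcan, the brevican gene, had 4.96 FPKM in Trrap-deleted and 13.5 FPKM in control cortex, and Dclk1, which is also strong in young neurons, had 21.3 FPKM in Trrap-deleted and 40.6 FPKM in control cortex. The decrease of Bcan was 2.73-fold, so those of Gja1 and Bcan lay within the range of the apical progenitor genes. Gfap, Aqp4, S100b and Slc1a2, which mark mature astrocytes, were not listed, and a gene that was not listed may be unchanged, too weak to pass or not expressed.

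**Figure D3:**
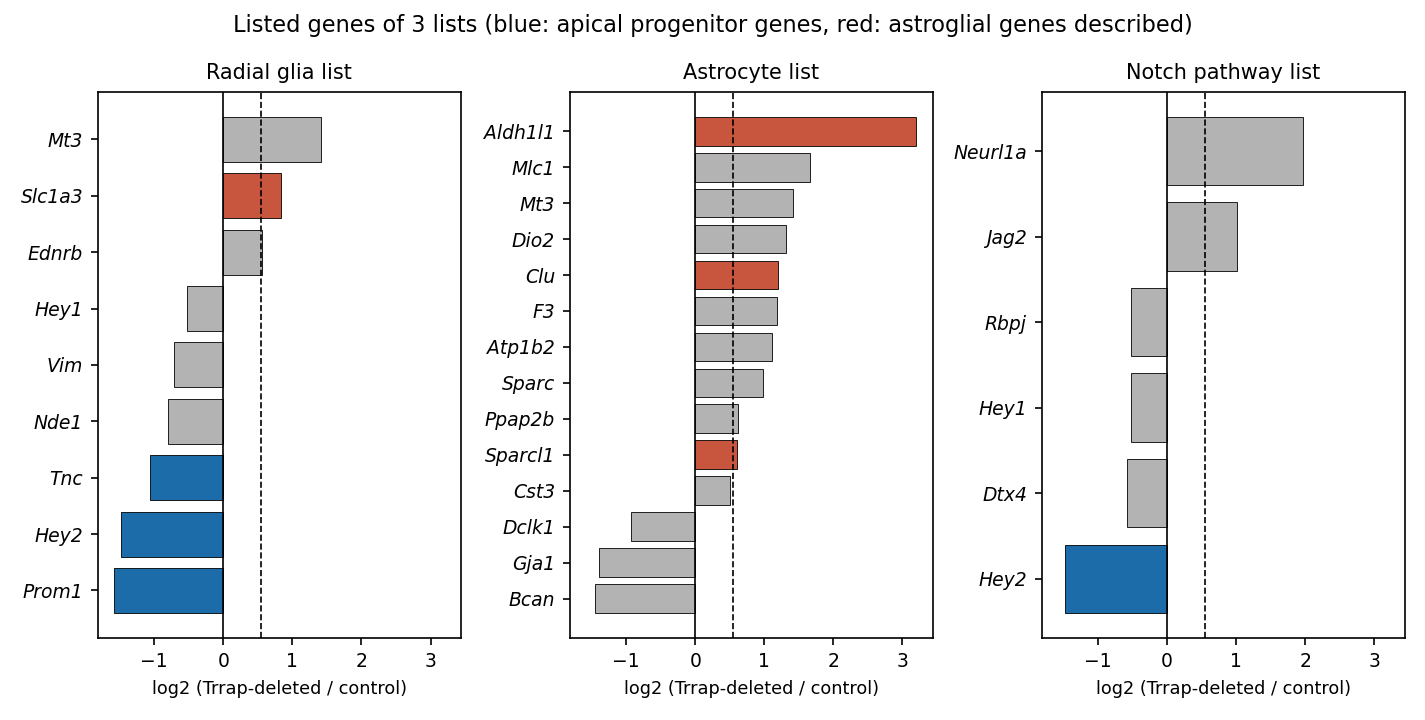
Log2 ratio of Trrap-deleted over control FPKM (x axis) for the listed genes (y axis) of the radial glia list (9 of its 10 listed genes are drawn), the astrocyte list (14 of 50) and the Notch pathway list (6 of 48), with the median of all rows as a dashed line. Blue bars are the apical progenitor genes, red bars are the astroglial genes and grey bars are other list genes; the radial glia panel leans to the left, the astrocyte panel to the right, and Gja1 and Bcan are the longest bars to the left among astrocyte genes.

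Hey2 was set beside the other genes of the Notch pathway. Of 48 genes on that list 6 were listed, 4 lower and 2 higher, with a median log2 ratio of -0.53. Over all symbols compared, 41.5% were lower and 58.5% higher. Rbpj, the DNA-binding factor of the pathway, had 26.3 FPKM in the Trrap-deleted library and 37.7 FPKM in the control library. Dtx4, a Deltex ubiquitin ligase gene, had 6.70 FPKM against 10.03 FPKM in the control. Jag2, a ligand gene, was higher (5.49 FPKM in Trrap-deleted, 2.73 FPKM in control cortex), as was Neurl1a, which encodes a Neuralized ubiquitin ligase (5.27 FPKM in Trrap-deleted, 1.34 FPKM in control cortex). The 2 listed effectors, Hey1 and Hey2, and the factor Rbpj were thus lower while a ligand gene was higher. Equal summed FPKM over the listed rows adds 0.35 to each log2 ratio. The list then still had 4 lower and 2 higher genes, but most of the decrease of Hey1 (-0.53 as deposited) and Rbpj (-0.52) was gone. The receptor genes Notch1 and Notch2 and the ligand genes Dll1 and Dll3 were not listed. Of 40 genes that control the switch to making glia 7 were listed, 6 higher (5 once rescaled to a median of 0) and 1 lower. The higher ones included the signalling genes Il6st (12.9 FPKM in Trrap-deleted, 6.93 FPKM in control cortex), Bmpr1b (6.59 FPKM in Trrap-deleted, 3.54 FPKM in control cortex) and Bmp7 (2.69 FPKM in Trrap-deleted, 1.59 FPKM in control cortex), and also Neurog2, a proneural gene that favours neurons over glia (112 FPKM in Trrap-deleted, 89.6 FPKM in control cortex), which was the one that turned once rescaled. The lower one was Olig2, an oligodendrocyte lineage factor gene, at 0.111 FPKM in the Trrap-deleted and 0.423 FPKM in the control library. Sox9, Nfia, Nfib and Stat3 were not listed.

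Each gene was also set beside genes of its own biochemical family. For the counts here and in the next paragraph, 58.5% of all symbols compared were higher and 41.5% lower. Tnc was 1 of 2 lower genes among 10 listed of 41 in a list of germinal zone matrix genes and their partners, the other being Bcan. The other 8 were higher (7 once rescaled), among them Cspg5, a neural proteoglycan gene (15.4 FPKM in Trrap-deleted, 3.97 FPKM in control cortex), Cntn1, which encodes a neuronal adhesion protein (10.1 FPKM in Trrap-deleted, 2.82 FPKM in control cortex), Fbln2 (4.69 FPKM in Trrap-deleted, 1.64 FPKM in control cortex) and Lama2 (1.46 FPKM in Trrap-deleted, 0.226 FPKM in control cortex), the laminin and fibulin genes being made by meningeal cells too. Prom1 was the only lower gene among 4 listed of 40 for the apical membrane and junctions, where Pard6b, a polarity gene, had 6.80 FPKM in the Trrap-deleted and 4.01 FPKM in the control library, and Pvrl1 (5.75 FPKM in Trrap-deleted, 4.07 FPKM in control cortex) and Pvrl2 (13.4 FPKM in Trrap-deleted, 7.997 FPKM in control cortex), which encode nectins, were higher as well. With the libraries rescaled to a median of 0, this list had 2 higher and 2 lower genes, Pvrl1 being the one that turned.

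Aldh1l1 was the only higher gene among 4 listed of 31 in folate and one-carbon metabolism. As above, 58.5% of all symbols compared were higher and 41.5% lower. The mitochondrial folate enzyme genes Mthfd2l (6.73 FPKM in Trrap-deleted, 15.5 FPKM in control cortex) and Mthfd1l (1.25 FPKM in Trrap-deleted, 2.42 FPKM in control cortex) were lower. Gldc, a glycine cleavage enzyme gene that is also strong in radial glia and astrocytes, was lower too (8.44 FPKM in Trrap-deleted, 15.8 FPKM in control cortex). Slc1a3 was 1 of 3 higher genes among 7 listed of 21 in glutamate handling. The neutral amino acid transporter gene Slc1a4 of the same family had 8.06 FPKM in the Trrap-deleted library and 16.4 FPKM in the control library. Slc38a1 (28.7 FPKM in Trrap-deleted, 53.7 FPKM in control cortex) and Slc38a2 (38.2 FPKM in Trrap-deleted, 75.9 FPKM in control cortex), which take up glutamine, were lower, and the neuronal vesicular transporter gene Slc17a7 was higher (46.5 FPKM in Trrap-deleted, 20.2 FPKM in control cortex). Clu and Sparcl1 belonged to a list of 29 SPARC family and secreted glial genes, of which 10 were listed, 8 higher (6 once rescaled) and 2 lower. In it Smoc1 (10.2 FPKM in Trrap-deleted, 3.49 FPKM in control cortex) and Spock3 (1.38 FPKM in Trrap-deleted, 0.498 FPKM in control cortex), both of the SPARC family, were higher.

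Genes of other cell types also differed between the libraries, and their part in the values above was not tested. All 11 listed microglial markers of 26 were higher, with a summed level of 41.4 FPKM in the Trrap-deleted and 16.2 FPKM in the control library, as were all 10 listed meningeal markers of 20, with 36.9 FPKM in the Trrap-deleted and 12.8 FPKM in the control library. Over all symbols compared, 58.5% were higher. Nearly all of these markers were weak, and weak rows were mostly higher. In abundance groups with a mean of up to 9.38 FPKM, 65.1% to 81.5% of rows were higher. The median log2 ratios of those groups ran from 0.70 to 1.51. Listed microglial markers had a median log2 ratio of 1.42 and listed meningeal markers one of 2.55. Clu and Sparcl1 are also transcribed outside astroglia, in choroid plexus and vessels. Of 26 choroid plexus and cortical hem genes 4 were listed, 2 higher and 2 lower, with Ttr, the main choroid plexus transcript, at 3.31 FPKM in the Trrap-deleted and 0.104 FPKM in the control library, and of 25 endothelial and pericyte genes only Pdgfrb and Cspg4 were listed, both higher. Of 20 oligodendrocyte lineage genes 4 were listed, 3 higher, with summed levels of 3.66 FPKM in Trrap-deleted and 2.11 FPKM in control cortex. Of 15 erythroid genes 3 were listed, 1 higher and 2 lower. Of 24 ventral telencephalic genes 5 were listed, 4 lower and 1 higher, with summed levels of 25.3 FPKM in Trrap-deleted and 34.5 FPKM in control cortex. Of 21 basal progenitor genes 8 were listed, 7 higher (4 once rescaled), and of 26 projection neuron genes 10 were listed, 4 higher (5 with both libraries set to equal summed FPKM) and 6 lower. Dorsal cortical identity genes had 4 of 14 listed, 3 lower (all 4 once rescaled to a median of 0, 2 with equal summed FPKM) and 1 higher, with summed levels of 443 FPKM in Trrap-deleted and 495 FPKM in control cortex. Neurod6 was the strongest (260 FPKM in Trrap-deleted, 312 FPKM in control cortex), so genes of the labelled tissue were present. The Y-linked genes Eif2s3y, Ddx3y and Kdm5d were present in the Trrap-deleted library and near 0 in the control library, and Xist, the X-linked RNA of female cells, had 142 FPKM in the Trrap-deleted and 313 FPKM in the control library. The Trrap-deleted library thus held both Y-linked transcripts and Xist, so the sex of the embryos and genotype cannot be told apart here. Of 37 genes of Trrap complexes and partner factors 3 were listed, 1 higher (none once rescaled) and 2 lower.

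**Figure D4:**
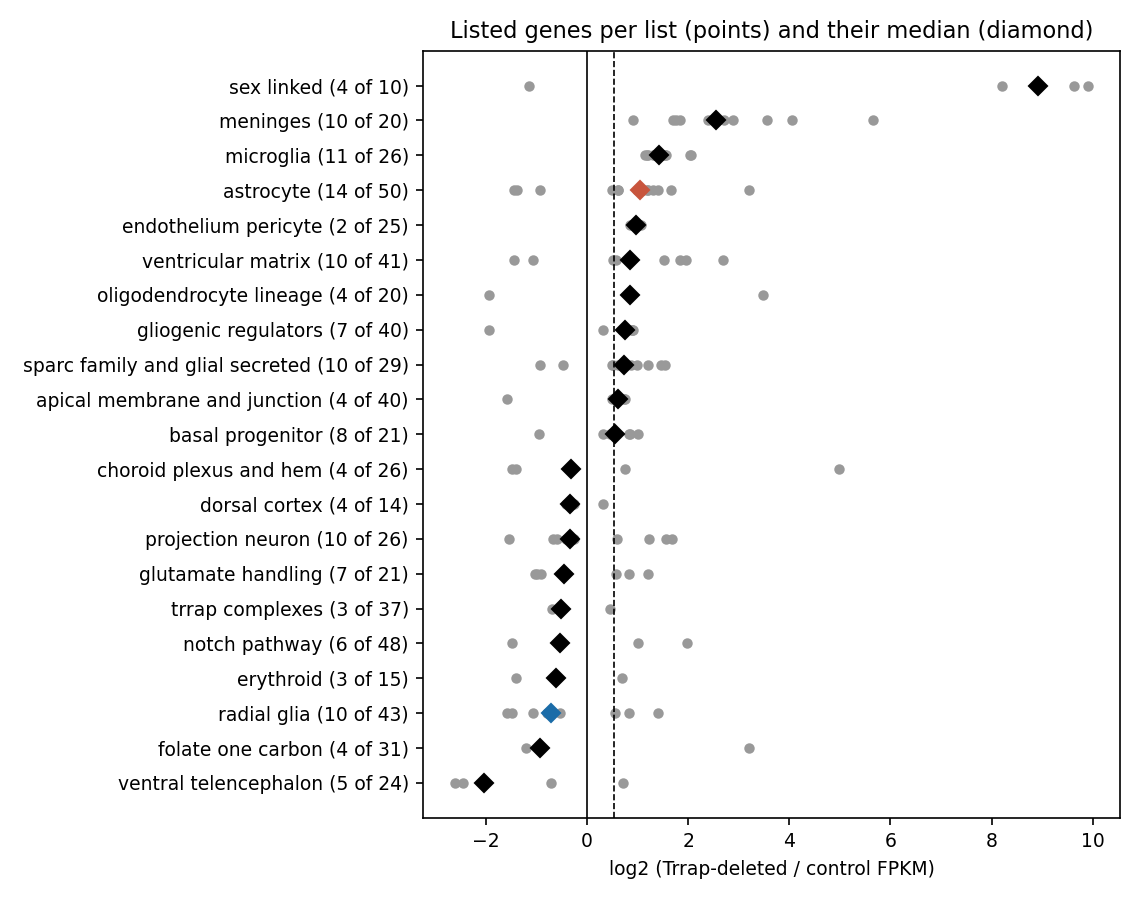
Log2 ratio of Trrap-deleted over control FPKM (x axis) of the listed genes (grey points) of each of the 21 gene lists (y axis, with the number listed of the number in the list) and their median (diamond), ordered by median, with the median of all rows as a dashed line. The astrocyte list (red diamond, 1.05) lies right of the dashed line and the radial glia list (blue diamond, -0.71) left of 0, and the meningeal and microglial lists lie further right than the astrocyte list.

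The row most like each gene was found as the row nearest in the plane of log2 Trrap-deleted and log2 control FPKM, a likeness over only 2 libraries. For Hey2 it was Wnt8b, a Wnt gene of the cortical hem and medial cortex (1.57 FPKM in Trrap-deleted, 4.38 FPKM in control cortex). For Prom1 it was the row named Mir135a-2 (8.34 FPKM in Trrap-deleted, 25.3 FPKM in control cortex), and for Tnc the predicted gene Gm17143 (4.47 FPKM in Trrap-deleted, 9.10 FPKM in control cortex). For Slc1a3 it was B3gat1, which encodes an enzyme that makes the HNK-1 carbohydrate of neural cells (54.9 FPKM in Trrap-deleted, 31.5 FPKM in control cortex), for Clu the cadherin gene Cdh8 (35.2 FPKM in Trrap-deleted, 15.4 FPKM in control cortex) and for Sparcl1 the gene Megf10, which encodes an engulfment receptor of astrocytes (14.6 FPKM in Trrap-deleted, 9.51 FPKM in control cortex). Sparcl1 had 12 rows within 0.1 on this scale and Prom1 had 1. Aldh1l1 had none that near.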

How the data were processed

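RNA of E14.5 mouse cortex was sequenced in 2 libraries, 1 Trrap-deleted and 1 control, from about 2.5 µg of total RNA each with a TruSeq RNA kit, per the labels' protocols. The submitters' processing notes name TopHat2 and mm9, and no source used here names the software that counted and tested. The 2 value columns were read as FPKM as deposited by the authors, from the column layout, which is that of Cuffdiff. The log2 fold change deposited by the authors equalled log2 of the 2 values to within 1.18e-05. The p-value and q-value are the authors' deposited values, from a test whose use of replicates is not stated. Only rows called significant are in the table. No source used here gives read totals, so depth and counting error are unknown.

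Ratios, ranks and counts were computed with pandas 2.3.3 in Python 3.11.15, and tested on simulated data. A symbol with 2 rows was represented in lists by the row with the higher mean FPKM, the 59 rows that name several symbols were not used in lists, and rows were put in 10 equal groups by mean FPKM. Starts are given 1-based on mm9. GENCODE M21 and RefSeq, on GRCm38, were used for strand, gene length and promoter windows only. The 7 genes and the 21 lists (542 symbols) were chosen with earlier results of these data known. Named were the 7 genes, all listed genes of the radial glia, astrocyte and Notch lists, up to 4 per other list by size of the log2 ratio at 1 FPKM or more, and the nearest row to each gene. Unlisted genes, Olig2 and Cspg4 were named outside that rule, and 3 genes that the rule names are not reported here, though counts of a list include its unnamed members. Alternatives were pseudocounts, FPKM filters, rescaling, a stricter q-value and leaving out each gene.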

Additional observations from a re-analysis of the deposited data

How the results depend on the processing

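The 7 genes kept their direction in all 35 recomputed values, under pseudocounts of 1 and 0.1 FPKM, both rescalings and the sum of the rows of a symbol. Much of this was fixed in advance. A pseudocount cannot change a direction, and summing rows changed only Prom1, whose rows were both lower. Rescaling to a median of 0 could turn only increases, and equal summed FPKM only decreases. The difference between the group medians, -2.50, was -2.06 with a pseudocount of 1 FPKM, -2.44 with 0.1 FPKM, -2.84 with means in place of medians and -2.47 with Slc1a3 among the apical progenitor genes. Leaving out 1 gene gave -2.29 without Prom1, -2.34 without Hey2, -2.56 without Tnc, -2.68 without Slc1a3, -2.32 without Aldh1l1, -2.32 without Clu and -2.68 without Sparcl1; with members chosen by direction, these values could not change sign. At a q-value under 0.01, 906 rows were higher and 647 lower in place of 1382 and 999, and 7 astrocyte genes were higher in place of 11, Clu and Sparcl1 being among those lost. The share of rows higher was 58.0% as deposited and 50.1% after rescaling to a median of 0, which makes it near even by construction, 58.7% with equal summed FPKM and 52.2% among rows of at least 5 FPKM; after rescaling to a median of 0, the radial glia list had 7 lower and 3 higher, and the astrocyte list had 10 higher and 4 lower. No paired analysis was possible because each genotype had 1 library. With 1 library per genotype and unknown depth, no counting interval, detection limit or replicate check could be given.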
